A study of Mus musculus with 5 samples.

Results

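The genes described here are the cytoplasmic ribosomal protein genes, the protein parts of the ribosomes that translate nuclear messenger RNA. A gene belonged to the set if its symbol was Rpl or Rps followed by a number, with at most the usual letter and digit endings, or was Rplp0, Rplp1, Rplp2 or Rpsa. Symbols of pseudogenes, which end in -ps and a number, were left out. The rule took 88 of the 52542 gene rows in the count tables, 52 named Rpl or Rplp for the large (60S) subunit and 36 named Rps or Rpsa for the small (40S) subunit. It used symbols alone and no measured value.

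The data are single-cell RNA counts of myeloid cells from the brain of DM-hTAU mice, a strain that carries the human tau gene with a pair of mutations linked to frontotemporal dementia. All 5 libraries have the same labels: mice aged 9 months, treatment aPDL1 (an antibody that blocks the checkpoint ligand PD-L1), tissue brain, and cells selected as CD45+ CD11b+. CD45 marks white blood cells and CD11b myeloid cells. The paper describes the sorted cells as high for both, a gate meant to enrich monocyte-derived macrophages. The microglia-like cells below are thus cells from that gate. The study's text also describes sorting cells from mice given the control antibody IgG2b, but no library here has that label. No value below therefore compares treatments, and nothing in the labels ties the 5 libraries to separate mice, so the spread between libraries may be technical. The preparation given with the labels speaks of thymus and small intestine, while the paper's methods describe brain. Each library is a plate of 384 wells, called library 1 to library 5 below in the order of their replicate numbers.

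A ribosome holds about equal numbers of each of its proteins, and ribosomal protein messenger RNAs are among the most abundant in most cells. They share a short run of pyrimidines (C and T) at the very start of the transcript, the terminal oligopyrimidine tract, through which growth signals set their translation. Levels of these messengers are known to differ with the growth state of a cell. Rplp0, Rplp1 and Rplp2 form the stalk of the large subunit that recruits elongation factors, and Rpsa, also known as the laminin receptor, sits on the small subunit.

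The start of the transcript is shown for 6 of the 88 genes, chosen because they carry a tract at the annotated start and because their levels pass a test below. Each window runs from 10 bases before the start site to 20 bases from it, in GRCm38.p6 as given by RefSeq, and capitals mark the run of pyrimidines that begins at the annotated start with a C. Rpl14 lies on chromosome 9 (120571507 to 120571536, plus strand), Rps15a on chromosome 7 (118116128 to 118116157, minus strand) and Rps18 on chromosome 17 (33955646 to 33955675, minus strand). Rpl38 lies on chromosome 11 (114668570 to 114668599, plus strand), Rplp2 on chromosome 7 (141447641 to 141447670, plus strand) and Rps21 on chromosome 2 (180257369 to 180257398, plus strand).
Rpl14: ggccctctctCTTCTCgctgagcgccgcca
Rps15a: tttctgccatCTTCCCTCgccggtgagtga
Rps18: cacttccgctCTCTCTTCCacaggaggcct
Rpl38: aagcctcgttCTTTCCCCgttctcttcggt
Rplp2: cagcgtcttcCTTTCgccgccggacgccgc
Rps21: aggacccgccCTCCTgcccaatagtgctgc

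A C at the annotated start followed by at least 4 pyrimidines, read on the gene's own strand, stood at 13 of the 75 RefSeq start sites found for 63 of the 88 genes (17.3%). Over all 32851 start sites in the same reference it stood at 823 (2.51%). A run of 8 pyrimidines anywhere in the 30-base window was present at 32.0% of the start sites of ribosomal protein genes and at 11.2% of all start sites. Among 75 start sites of mitochondrial ribosomal protein genes, whose products build the separate ribosome of mitochondria, 0 had the tract at the start. A match here describes the annotated letters only, because annotated start sites are often off by a few bases and the data were read from the 3′ end.

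Of 1900 wells sorted with 1 cell, the 825 with at least 500 UMIs (unique molecular identifiers, each counting 1 captured RNA molecule) were kept, with a median of 1015 UMIs, and 68 to 314 cells came from each library. The kept cells held 1132493 UMIs, of which 49086 (4.33%) came from ribosomal protein genes. In the 20 wells that held no cell, 12 of 320 UMIs did (3.75%, 95% exact binomial interval 1.95% to 6.46%, which covers counting error only). The wells under 500 UMIs stood at 3.70%. Libraries 3 and 5 supplied 285 and 314 of the kept cells, so they weigh most. The share of 2 transcripts that resemble ribosomal RNA, Gm42418 and Gm26917, differed between libraries from 4.20% to 11.2% of UMIs and was highest in library 5, where the overall share of ribosomal protein genes was lowest (3.92%). Its part in the differences between libraries was not tested. Ratios of shares below are taken within libraries and the tests have library as a block. Class means, medians over cells, counts of non-overlapping sums, and levels or single-gene ratios summed over libraries also set different libraries side by side.

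Not every member was measured well. In the kept cells 82 of the 88 genes had at least 1 UMI, 10 had fewer than 10 and 31 had fewer than 100. Among the 6 without any UMI were Rpl3, Rpl3l, Rpl10l, Rpl17 and Rpl41. Among the 8 most counted, which together made 29.1% of the family's UMIs, were Rps24 (2430 UMIs), Rplp1 (2322), Rps9 (1713), Rpl26 (1686), Rpl4 (1596), Rpl32 (1439) and Rpl10 (1431). Since the libraries read 3′ ends and each molecule is counted once, these counts are not expected to rise with transcript length. They can depend on how uniquely the 3′ end can be placed.

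The 3′ ends of the members were therefore compared with those of other genes. For 83 members with a GENCODE transcript of a protein-coding gene, the last 300 bases were divided into overlapping words of 50 bases, and a word counted as shared if a transcript of another gene held it. The 28 members with fewer than 100 UMIs shared a median of 69.7% of their words, and the 55 members with at least 100 UMIs shared a median of 36.3%. Rps13, a protein of the small subunit, had 4 UMIs, while its near copies Rps13-ps1 and Rps13-ps2, which share 70.9% and 80.9% of its words, had 737 and 711 UMIs. Rpl41, the smallest protein of the large subunit, had 0 UMIs, while Gm10076, which shares 62.9% of the words of Rpl41, had 1053. Rpl3 was at 0 UMIs beside 445 for Rpl3-ps1, and Rps6, the S6 kinase substrate, had 46 UMIs beside 1216 summed over its near copies. Rps27 had all of its words in common with Rps27rt, which had 386 UMIs. The relation was loose over the family (Spearman's rho = -0.19 over 83 genes, a description), and there were exceptions both ways. Of the 28 members with fewer than 100 UMIs, 6 shared none of their words, among them Rpl13a (40 UMIs), Rpl27a (28) and Rpl28 (33), while Rpl10 shared all of its words and had 1431 UMIs. Rps24, the most counted gene, shared none. In all, 102 other rows shared at least 50% of the words of a member and held 16807 UMIs, 1.48% of all. Whether any of these UMIs came from the members was not tested. The sources read for this work do not say how reads that match several genes were placed.

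**Figure D1:**
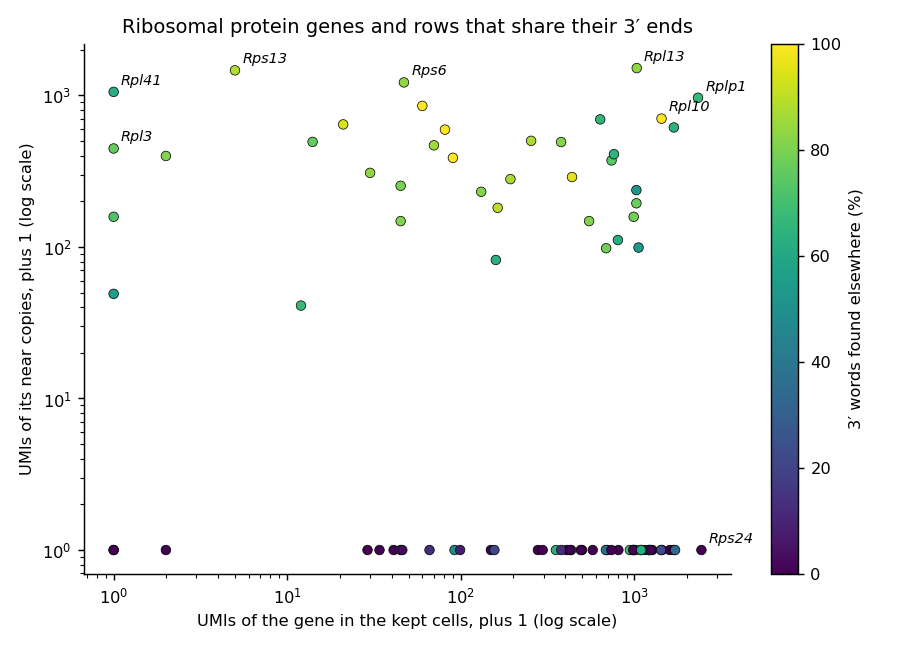
UMIs of each ribosomal protein gene in the 825 kept cells (horizontal, log scale, plus 1) against the summed UMIs of rows that share at least 50% of its 3′ words (vertical, log scale, plus 1), for the 83 genes with a protein-coding transcript, coloured by the percentage of 3′ words found in other genes. Rpl41 (0 UMIs against 1053) and Rps13 (4 against 1461) lie at the upper left, and Rps24 (2430 against 0) at the lower right.

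Of the 88 symbols, 5 are annotated in GENCODE as processed pseudogenes although their names passed the rule: Rpl6l, Rps12l1, Rps3a2, Rps3a3 and Rps4l. Rps3a2 and Rps3a3 had 492 and 332 UMIs, while Rps3a1, the gene with introns that encodes the protein, had 13. Values for these rows are therefore uncertain as to their source. The rows named as pseudogenes of the family, 276 in number and outside the set, held 1.97% of all UMIs.

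Cells were assigned to classes from markers that do not include a ribosomal protein gene. Microglia-like cells (271) passed a gate on 12 microglial genes that include Cx3cr1 and Sparc, with P2ry12 at 29.9 UMIs per 10000 against 1.88 to 4.51 in the other classes. Neutrophil-like cells (30) were led by S100a9 and S100a8, and monocyte-like cells (57) by Ccr2 and Ly6c2. Border macrophage-like cells (121), which resemble the macrophages of meninges and vessels, were led by Mrc1 and Stab1, with Vsig4 at 0 UMIs. The paper instead counts Mrc1 and Stab1 among genes of infiltrating monocyte-derived macrophages, and the origin of these cells was not tested here. The cells called Cd209a-gated (52) were led by Cd209a at 22.4 UMIs per 10000 and Napsa, markers of dendritic and monocyte-derived cells. Cells that passed a gate on 6 antigen presentation genes (Cd74, H2-Aa, H2-Ab1, H2-Eb1, H2-DMa and H2-DMb1) and no other gate are called MHC class II-high (183). The name gives no lineage, because genes of macrophages and of dendritic cells took part only by exclusion. Nor does it give a level of their own. The 6 genes together stood at 477 UMIs per 10000 in these cells and at 459 in Cd209a-gated cells. A further 28 cells passed both the microglia and the border macrophage gate and 83 passed none, and these were not compared. Summed markers of T and NK cells were highest in the monocyte-like cells (3.5 UMIs per 10000, 4 of 10 genes detected) and at most 0.4 in the other compared classes, B cell markers stood at 1.6 to 3.2, and those of neurons at 0.0 to 0.1.

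The share of UMIs from ribosomal protein genes differed between classes by several times. It was lowest in neutrophil-like cells at 1.17% ± 0.18 (SD, n = 3 libraries with at least 5 such cells). Microglia-like cells stood at 3.42% ± 0.57 (n = 5) and border macrophage-like cells at 3.42% ± 0.40 (n = 2). Monocyte-like cells stood at 5.34% ± 0.78 (n = 4), MHC class II-high cells at 5.85% ± 1.13 (n = 4) and Cd209a-gated cells at 7.59% ± 1.03 (n = 4). The neighbours microglia-like and border macrophage-like, monocyte-like and MHC class II-high, and MHC class II-high and Cd209a-gated, overlapped over libraries.

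Taken library by library, microglia-like cells had shares of 3.42%, 4.27%, 3.45%, 3.28% and 2.67% in libraries 1 to 5. The MHC class II-high cells of libraries 1, 2, 3 and 5 had 5.83%, 7.32%, 5.69% and 4.56%. The ratio of the latter to the former was nearly constant, 1.69 ± 0.03 (SD, n = 4 libraries), with a range of 1.65 to 1.71. Cd209a-gated cells had 8.90%, 7.35%, 6.41% and 7.70% in libraries 2 to 5, between 1.95 and 2.89 times the share of the microglia-like cells in the same library. In libraries 2, 3 and 5, where both were measured, the Cd209a-gated cells also lay above the MHC class II-high cells. Monocyte-like cells had 6.41%, 5.18%, 5.23% and 4.53% in libraries 1, 2, 3 and 5, or 1.21 to 1.87 times the microglia-like share. Border macrophage-like cells had 3.71% in library 3 and 3.14% in library 5, and the ratios of 1.07 and 1.18 rest on 2 libraries.

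**Figure D2:**
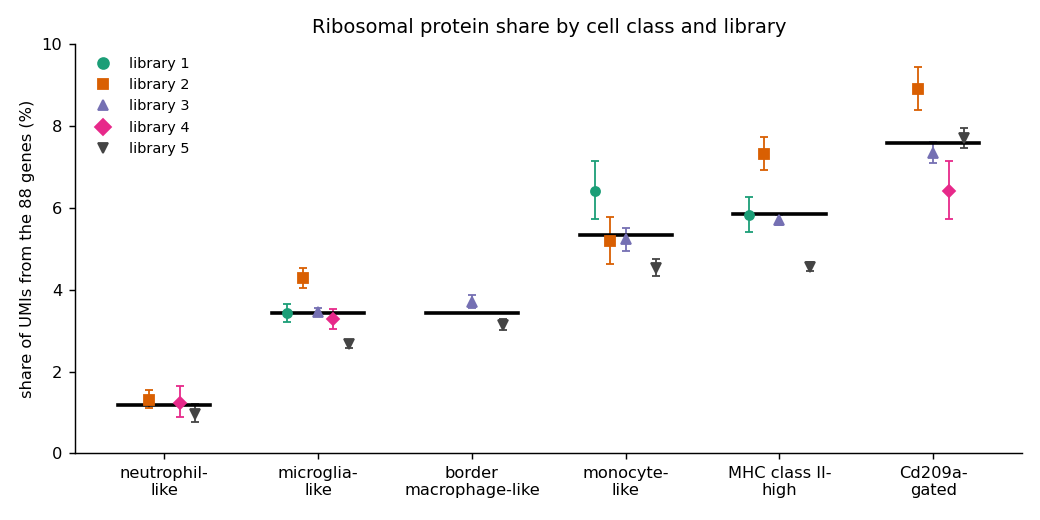
Share of UMIs from the 88 ribosomal protein genes (vertical, %) in each class and library with at least 5 cells of the class; bars through points are 95% exact binomial intervals for counting error and black lines are means over libraries. Neutrophil-like sums lie between 0.972% and 1.31%, below every microglia-like sum (2.67% to 4.27%), and Cd209a-gated sums lie between 6.41% and 8.90%.

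Neutrophil-like cells had shares of 1.31%, 1.23% and 0.972% in libraries 2, 4 and 5, between 0.306 and 0.375 times the microglia-like share. Here the denominator matters, because the gating markers, mostly those of neutrophils, took 36.9% of these cells' UMIs. With all gating markers removed from the denominator the neutrophil-like share was 1.86% ± 0.34 (n = 3) and the ratio 0.524, with a range of 0.462 to 0.580. With the same removal the ratios of the other classes moved by at most a few hundredths (2.29 for Cd209a-gated cells and 1.71 for MHC class II-high cells). Without mitochondrial and ribosomal RNA-like transcripts the ratios were 2.28, 1.72, 1.68 for monocyte-like cells and 0.338 for neutrophil-like cells.

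The order was also visible in single cells, which are not replicates. The median share per cell was 1.00% in neutrophil-like cells, 3.12% in microglia-like cells, 3.30% in border macrophage-like cells, 4.88% in monocyte-like cells, 5.0% in MHC class II-high cells and 8.03% in Cd209a-gated cells. A median Cd209a-gated cell had 126 UMIs from 45 of the genes, and a median neutrophil-like cell 6.5 UMIs from 5 of them. Median depths differed (1441.5 UMIs in Cd209a-gated, 984.0 in microglia-like and 668.5 in neutrophil-like cells). Within classes, correlations between the share and the logarithm of a cell's UMIs ran from -0.14 to 0.10 over the 6 classes, given as descriptions. In subsets of microglia-like cells described below they were -0.36 (activated), -0.21 (high MHC class II) and -0.13 (low MHC class II). Whether depth has a part in the differences between classes was not tested.

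**Figure D3:**
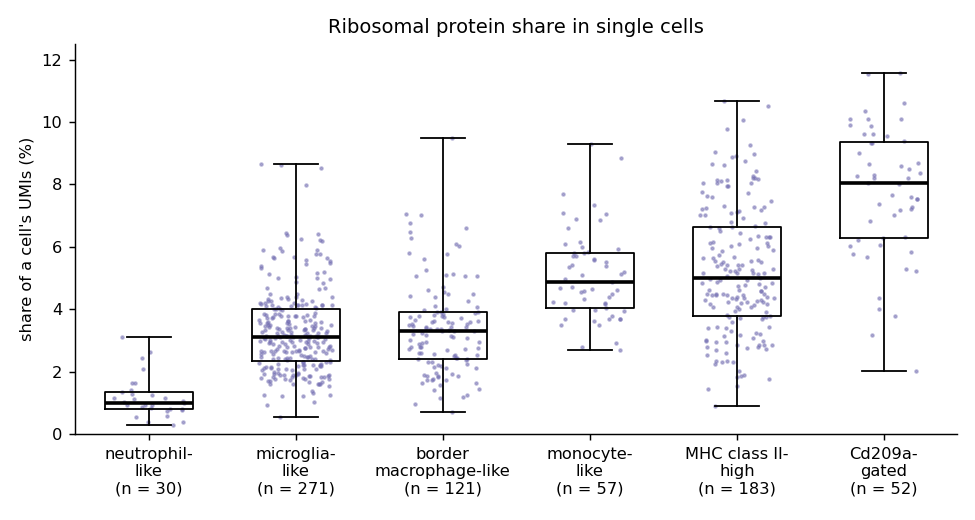
Share of each kept cell's UMIs from the 88 ribosomal protein genes (vertical, %) by class, 1 point per cell; boxes span the quartiles, lines inside are medians and whiskers reach the lowest and highest cell. Medians rise from 1.00% in neutrophil-like to 8.03% in Cd209a-gated cells, and single cells of neighbouring classes overlap.

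Large and small subunit genes moved in the same direction. The ratio of small to large subunit UMIs was 0.795 ± 0.15 in microglia-like cells (n = 5), 0.842 ± 0.056 in MHC class II-high cells (n = 4), 0.915 ± 0.13 in Cd209a-gated cells (n = 4), 0.751 ± 0.073 in monocyte-like cells (n = 4) and 0.902 ± 0.22 in neutrophil-like cells (n = 3), so the classes overlapped. Against microglia-like cells in the same library, the large subunit share of Cd209a-gated cells was 2.10 times as high on average. The small subunit share was 2.54 times as high. The gap was widest in library 4 (1.45 and 2.86 times, with 6 such cells), and library 2 went the other way (2.14 and 2.02). The order of single genes within the family was also much the same. Over the 57 genes with at least 100 UMIs, levels in microglia-like and MHC class II-high cells summed over libraries gave a Spearman's rho of 0.98, and Cd209a-gated cells gave 0.93. Neutrophil-like cells, with 256 UMIs from the family in all, gave 0.73. These are descriptions across genes that share libraries. Pairs of single libraries of microglia-like cells gave 0.65 to 0.90.

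Each gene was then tested on its own, with UMIs summed per library and class and edgeR's quasi-likelihood test fitted to all 6 classes with library as a block. Of the 88 genes, 57 had counts high enough for the test, among 959 genes in all, so the counts below cover those 57 and not the whole family. Fold changes are against microglia-like cells on the log2 scale, and a gene was called at an adjusted p under 0.05 with Benjamini-Hochberg adjustment over all 959 genes. The scale factors (TMM) treat most genes as unchanged. With plain library totals the median of all genes tested moved from -0.17 to 0.33 in Cd209a-gated cells, from -0.04 to 0.34 in MHC class II-high cells and from -0.07 to 0.43 in monocyte-like cells, so changes are given beside that median.

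In Cd209a-gated cells 18 of the 57 genes rose and 0 fell, where 10.5% of all genes tested rose and 18.5% fell. All 57 fold changes were above 0. Their median was 0.73 while the median of all genes tested was -0.17. With plain library totals in place of TMM, 48 of 57 rose, the median was 1.22 and that of all genes 0.33 (23.7% of all genes rose and 12.8% fell). With the 2 classes fitted alone, where 45 members could be tested, the medians were 0.82 and 0.14. The number of calls rests on libraries 3 and 5. Without library 3 it was 0, without library 5 it was 2, and leaving out each of the other libraries gave 24 to 33. The share of all genes called in these runs is not given. These counts thus describe the calls and not the family.

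Rplp0, the stalk base of the large subunit, was the clearest of them. It stood at 24.0, 26.7, 10.7 and 29.1 UMIs per 10000 in Cd209a-gated cells of libraries 2 to 5, and at 3.22, 5.34, 7.90, 4.40 and 6.76 in microglia-like cells of libraries 1 to 5. The groups did not overlap, and the fold change was 1.5 ± 0.28 (SE, adjusted p = 3.3e-05 by edgeR). Rps19, a small subunit protein needed for 40S maturation and mutated in Diamond-Blackfan anemia, stood at 21.4, 18.8, 25.7 and 17.6 against 5.63, 6.48, 5.61, 2.93 and 5.04. Every Cd209a-gated sum was thus at least 17.6 and every microglia-like sum at most 6.48, for a fold change of 1.44 ± 0.29 (adjusted p = 0.00013). Rpsa stood at 15.1, 14.2, 12.9 and 15.6 against 6.03, 7.24, 4.27, 1.96 and 2.95, again without overlap, for a fold change of 1.35 ± 0.32 (adjusted p = 0.00091).

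Rps15a, whose tract is shown above, stood at 19.6, 17.6, 17.2 and 18.0 against 3.22, 3.81, 6.64, 5.38 and 5.68, for a fold change of 1.23 ± 0.30 (adjusted p = 0.0011). Rps18, also shown above, stood at 19.6, 20.7, 15.0 and 17.6 against 8.85, 5.72, 7.43, 4.40 and 4.60 (1.28 ± 0.31, adjusted p = 0.0014). Both had no overlap between the groups. Rpl14 (1.16 ± 0.31, adjusted p = 0.0030) was more uneven, with 24.0, 12.8, 4.29 and 16.7 in the Cd209a-gated cells, and its value in library 4 fell within the microglia-like range of 3.91 to 8.85. Rps16 stood at 6.26 to 8.91 against 1.44 to 3.22 (1.51 ± 0.41), and Rpl5, which binds 5S ribosomal RNA, had the largest fold change (1.64 ± 0.64) on the fewest counts, 32 and 26 UMIs. The remaining 10 genes that rose were Rps3a2 (1.06, one of the rows annotated as a pseudogene), Rps9 (1.01), Rps26, Rpl32, Rpl8, Rpl38, Rps4x, Rpl34, Rpl23 and Rpl26, with fold changes from 0.69 to 1.06.

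Counting libraries rather than fitting gave a similar picture on the scale of UMIs per 10000. In 26 of the 57 genes (45.6%) every Cd209a-gated sum lay above every microglia-like sum, against 14.0% of all genes tested, and in 0 every sum lay below, against 10.3% of all genes. Of the other abundant genes, Rplp1 did not pass the test (0.12 ± 0.27), although its levels of 29.4 to 43.6 lay above the 17.3 to 26.1 of microglia-like cells. Rpl4 showed the least change (0.10 ± 0.30), with 4.29 to 25.8 against 9.25 to 25.9. Rps24, the most counted, had 32.1 to 51.5 against 10.8 to 29.0 and a fold change of 0.63 ± 0.27 that missed the threshold (adjusted p = 0.068).

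**Figure D4:**
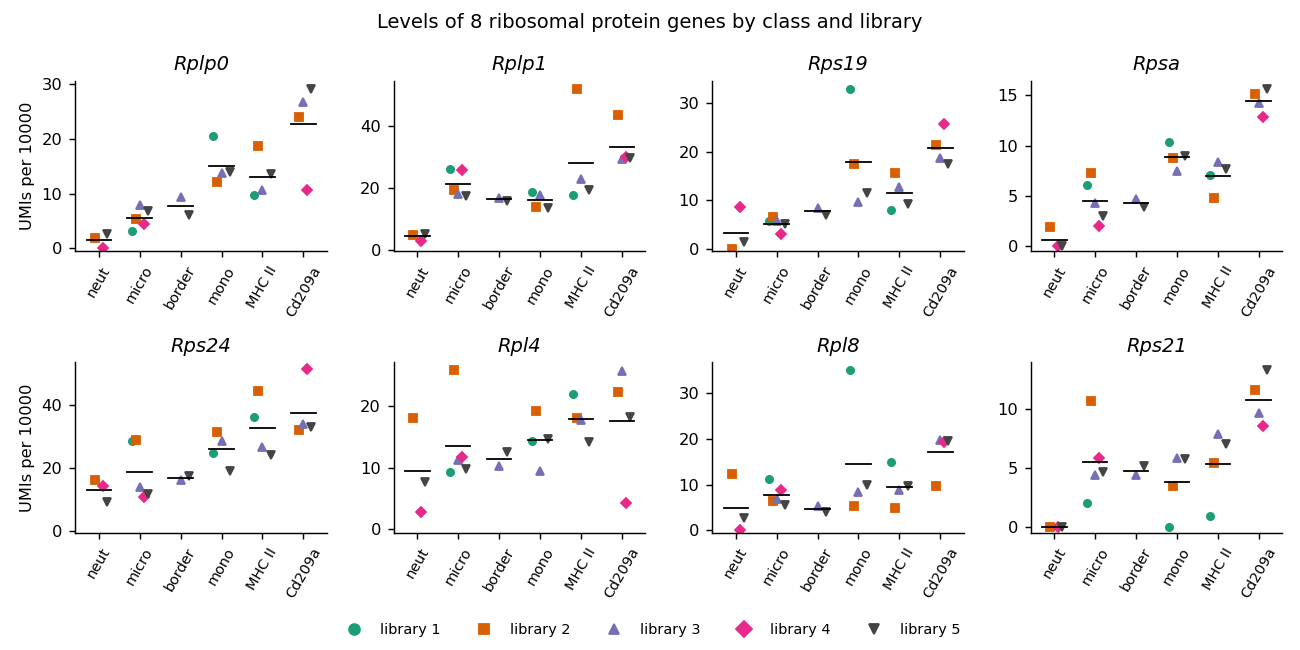
Levels of 8 ribosomal protein genes (vertical, UMIs per 10000, a separate axis for each gene) by class, 1 point per library with at least 5 cells of the class, black lines marking means (neut, neutrophil-like; micro, microglia-like; border, border macrophage-like; mono, monocyte-like; MHC II, MHC class II-high; Cd209a, Cd209a-gated). Rps19 and Rpsa show no overlap between Cd209a-gated and microglia-like libraries, Rplp1 is low in monocyte-like cells (13.6 to 18.5) and Rps21 is at 0 in the 3 neutrophil-like sums.

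In MHC class II-high cells 0 of the 57 genes passed the test in either direction by edgeR, where 2.29% of all genes rose and 10.2% fell. At an unadjusted p under 0.05, 11 of the 57 were higher and 0 lower, where 82 of all 959 genes were higher and 168 lower. The median fold change was 0.42 against -0.04 for all genes tested, with 51 of 57 above 0. Plain library totals moved these to 0.79 and 0.34, with all 57 above 0 and 20 called (10.7% of all genes rose). DESeq2 called 7 (6.57% of all genes rose). In 13 of the 57 genes (22.8%) every MHC class II-high sum lay above every microglia-like sum, against 8.55% of all genes, and in 0 every sum lay below (6.47% of all genes). Rps19 was among them, at 7.93, 15.6, 12.8 and 9.30 UMIs per 10000 in libraries 1, 2, 3 and 5 (fold change 0.75 ± 0.29, adjusted p = 0.075), and Rplp0 stood at 9.70, 18.6, 10.6 and 13.5 (0.64 ± 0.28, adjusted p = 0.13). Which of the scalings is right cannot be told from these counts.

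In monocyte-like cells 1 gene of 57 rose and 1 fell, where 4.38% of all genes rose and 14.1% fell. Rps19 rose by 0.96 ± 0.32 (adjusted p = 0.027), with 33.0, 17.4, 9.56 and 11.4 UMIs per 10000 in libraries 1, 2, 3 and 5, all above the microglia-like range. It was 1 of 5 genes (with Rpl23, Rpl34, Rplp0 and Rpsa) in which every monocyte-like sum lay above every microglia-like sum, where 6.36% of all genes did, and in 0 every sum lay below (8.65% of all genes). Rplp1 fell by 0.86 ± 0.30 on the log2 scale (SE, adjusted p = 0.033), with 18.5, 14.0, 17.9 and 13.6 against 26.1, 19.4, 18.1, 25.9 and 17.3 in microglia-like cells, so that each library's monocyte-like value was below its own microglia-like value. Neither call is firm: the count of genes that rose was 0 without library 1, 3 or 5, and the count that fell was 0 without any 1 of the 5 libraries. With plain totals 11 genes rose and 0 fell (11.3% of all genes rose and 8.97% fell). The partners of Rplp1 in the stalk did not fall with it, Rplp0 being at 0.68 ± 0.31 and Rplp2 at 0.17 ± 0.34, neither past the threshold.

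In neutrophil-like cells 21 of the 57 genes fell and 0 rose, where 19.2% of all genes tested fell and 8.13% rose. At an unadjusted p under 0.05 none of the 57 was higher, where 99 of all 959 genes were. The median fold change of the family was -1.83 and that of all genes -1.37. These depend on the scaling: with DESeq2 they were -0.78 and -0.18, with 14.5% of all genes higher and 3.02% lower, and with plain totals -1.91 and -1.44. With the 2 classes fitted alone, where 33 members could be tested, the medians were -0.77 and -0.70. In that fit 1 member was lower and 0 higher, where 10.8% of all genes were lower and 10.4% higher. These 3 sums held 21752 UMIs in 27 cells, and 7 of the 21 genes had 0 UMIs there (among them Rps21, Rpl21, Rps2, Rpl18, Rpl11 and Rps16), for which the fitted change is no bound. A count of 0 over the group allows up to 1.38 UMIs per 10000. On that limit, microglia-like cells of all 5 libraries were at least 3.57-fold higher for Rps21, 3.14-fold for Rps2 and 2.56-fold for Rpl21. These microglia-like cells held 166, 146 and 119 UMIs of these genes. The classes were thus not matched by library here. With the 11 tested genes at 0 set to that limit, the family's median was -1.41, beside -1.37 for all genes without such a limit. The limit covers counting error only and is on the scale of UMIs per 10000. The other values are fitted changes, so this median mixes scales.

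Among genes that were detected, Rplp1 fell by 2.24 ± 0.49 on the log2 scale (SE, adjusted p = 0.00070), with 4.74, 2.86 and 5.18 UMIs per 10000 in libraries 2, 4 and 5, under every microglia-like value. Rplp2 fell by 1.96 ± 0.70 (adjusted p = 0.031). Rpl10, a late-joining large subunit protein, had 2 UMIs against 313, a ratio of 10.1 (95% counting interval 2.77 to 83.8). Rpl23 had 1 against 234, a ratio of 15.1 (2.68 to 599). These ratios set neutrophil-like sums of libraries 2, 4 and 5 against microglia-like cells of all 5 libraries. Rpl4 stood at 18.0, 2.86 and 7.78 UMIs per 10000 and Rps24 at 16.1, 14.3 and 9.07, with fold changes of -0.22 ± 0.44 and -0.36 ± 0.39 that did not pass the test. In 31 of the 57 genes every neutrophil-like sum lay below every microglia-like sum, against 33.0% of all genes tested, and in 0 every sum lay above (5.42% of all genes). The number of genes called lower fell from 21 to 7 when marker, mitochondrial and ribosomal RNA-like rows were left out of the totals. There 6.88% of all genes fell. With DESeq2 the number was 1 (3.02% of all genes fell). It was between 10 and 19 without library 2, 3, 4 or 5, and 32 without library 1. For the runs without a library the share of all genes is not given.

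In border macrophage-like cells 0 of the 57 genes passed the test in either direction by edgeR, as 0.73% of all genes rose and 1.67% fell. At an unadjusted p under 0.05, 0 were higher or lower, where 38 of all 959 genes were higher and 67 lower. DESeq2 also called 0. The median fold change was 0.04, with 30 of 57 above 0. Rplp0 was at 0.11 ± 0.34 and Rps24 at 0.11 ± 0.33. In 3 genes (Rpl29, Rps7 and Rps19) both border sums lay above every microglia-like sum, against 9.07% of all genes, and in 2 (Rpl8 and Rplp1) both lay below, against 9.28%. These values rest on 2 libraries, and whether differences of this size could have been detected was not tested.

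**Figure D5:**
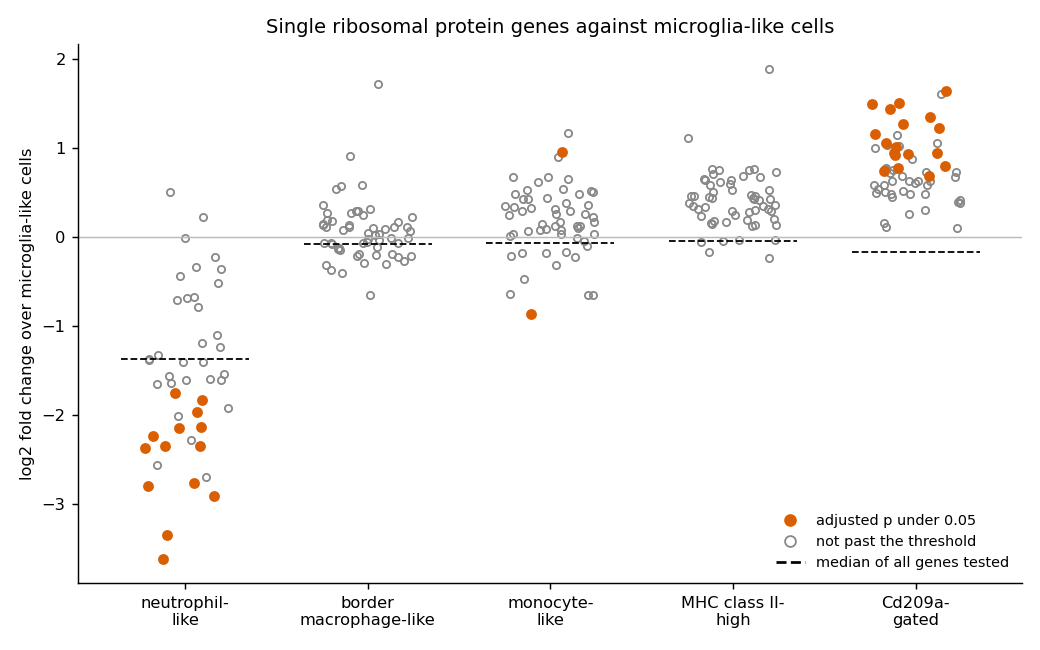
Log2 fold change of each tested ribosomal protein gene over microglia-like cells (vertical) in the 5 other classes, 1 point per gene, filled where the adjusted p was under 0.05 by edgeR; dashed lines are medians of all 959 genes tested. The 11 genes with 0 UMIs in neutrophil-like sums are left out of that column. In Cd209a-gated cells all 57 genes lie above 0 and above the dashed line at -0.17.

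To ask whether single genes moved apart from the family, the test was repeated with the summed UMIs of the 88 genes as each library's size. In Cd209a-gated cells Rplp0 rose by a further 0.75 ± 0.27 over the family (adjusted p = 0.027, where 2.5% of all genes rose), and 0 members fell, where 31.9% of all genes fell. The call was lost without library 3 or library 5. In monocyte-like cells Rplp1 fell by 0.96 ± 0.28 on the log2 scale relative to the family (adjusted p = 0.0097, where 15.7% of all genes fell), and 0 rose (3.86% of all genes rose). This call too was lost without library 3 or library 5. In neutrophil-like cells Rpl8 was higher by 1.70 ± 0.56 (adjusted p = 0.027, where 15.6% of all genes rose), but 13 of its 15 UMIs came from library 2, without which its fold change was -0.42. Rps21, at 0 UMIs there, was lower relative to the family (adjusted p = 0.041, where 1.36% of all genes fell), a call lost without library 2, 3, 4 or 5. In MHC class II-high and border macrophage-like cells 0 of 57 members departed from the family in either direction by edgeR, and 0 had an unadjusted p under 0.05. Of all genes, 1.25% rose and 17.8% fell in the former, and 0.73% rose and 1.88% fell in the latter. At the unadjusted threshold 24 of all 959 genes were higher and 243 lower in the former, and 36 and 74 in the latter.

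Within microglia-like cells the differences were small. Cells with low MHC class II and no activation markers (195 cells) had a share of 3.14% ± 0.40 (n = 5 libraries), activated cells that express genes such as Cst7, Lpl and Spp1 (25 cells) had 3.12% ± 0.12 (n = 2), and cells with high MHC class II (51 cells) had 3.85% ± 0.79 (n = 4). In libraries 2 to 5 the cells with high MHC class II had 5.02%, 3.58%, 3.50% and 3.31%, against 3.54%, 3.45%, 3.09% and 2.54% in the low cells of the same libraries, higher in 4 of 4 by a ratio of 1.04 to 1.42. Activated cells had 3.20% and 3.04% in libraries 3 and 5, a ratio of 0.928 in the former and 1.20 in the latter, so the direction differed. Of 36 members tested, 0 were called in either comparison by edgeR, where 0.0% of the 344 genes tested were called for activated cells and 0.581% rose and 0.291% fell for cells with high MHC class II. At an unadjusted p under 0.05, 2 of the 36 members were higher in cells with high MHC class II, where 13 of all 344 genes were. In activated cells 1 of the 36 was lower, where 9 of all 344 genes were. With plain totals and with DESeq2, 0 members were higher in activated cells.

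The set contains duplicate and tissue copies of members, and the products of some are thought to replace the parent protein. Rps27l, the paralog of Rps27 that responds to p53, was at 0.576 to 1.91 UMIs per 10000 in the 5 microglia-like sums, and Rps27 at 0.360 to 1.52, a comparison that the shared 3′ end of Rps27 limits. Rpl22l1, the paralog of Rpl22, had a mean of 1.24 UMIs per 10000 in microglia-like cells against 7.29 for Rpl22, and Rpl7l1 0.526 against 6.08 for Rpl7. In Cd209a-gated cells Rpl22 had a mean of 17.1 and Rpl22l1 of 2.51. The tissue forms Rpl3l and Rpl10l, of muscle and testis, had 0 UMIs in the kept cells, and Rpl39l had 1 UMI, in a border macrophage-like cell, among the 6 classes.

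Some proteins of the ribosome have symbols that fall outside the rule. Fau encodes a ribosomal protein fused to a ubiquitin-like protein, Rack1 is a scaffold on the small subunit, and Rpl36al is a copy of Rpl36a. Rack1 rose in Cd209a-gated cells (0.75 ± 0.27, adjusted p = 0.030), and Fau was at 0.65 ± 0.36 without passing. In the other 4 classes neither passed. Rack1 stood at 18.7, 15.4, 30.0 and 26.1 UMIs per 10000 in Cd209a-gated cells of libraries 2 to 5 and at 11.7, 15.2, 7.59, 9.78 and 6.83 in microglia-like cells, without overlap by a narrow margin.

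Other genes of translation gave context. Of 13 elongation factors and related messengers known as tract genes, whose annotated starts showed the tract at 1 of 11 sites, 8 were tested, and 3 rose and 0 fell in Cd209a-gated cells with a median of 0.72. Tpt1, a tract gene by textbook definition, rose by 0.95 ± 0.28 (adjusted p = 0.0078), with 23.2, 15.7, 17.2 and 24.8 UMIs per 10000 against 5.93 to 8.39 in microglia-like cells. Eef1a1, the elongation factor that delivers aminoacyl-tRNA, was at 0.42 ± 0.25 and missed the threshold. In neutrophil-like cells 2 of the 8 fell, Eef1a1 by 2.00 ± 0.44 (adjusted p = 0.00070) and Tpt1 by 1.80 ± 0.63 (adjusted p = 0.029) on the log2 scale. Of 25 initiation factors 6 were tested, and 1 rose in Cd209a-gated cells, with a median of 0.43. Eif3f, a subunit of initiation factor 3, stood at 1.25 ± 0.47 there (adjusted p = 0.039). Of 83 mitochondrial ribosomal protein genes only 4 could be tested, 0 passed in Cd209a-gated cells (median 0.16), and Mrpl33 rose in neutrophil-like cells (2.86 ± 0.89, adjusted p = 0.015), although 15 of its UMIs came from library 2 and 0 from library 4, where microglia-like cells had 7. None of 29 ribosome assembly genes and none of 18 regulators of translation and growth, such as Myc, Mtor and Larp1, had counts high enough to be tested.

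The share of UMIs from the rows named as pseudogenes of the family was 1.62% ± 0.38 in microglia-like cells (n = 5), 3.06% ± 0.99 in MHC class II-high cells (n = 4), 4.32% ± 1.19 in Cd209a-gated cells (n = 4) and 0.441% ± 0.14 in neutrophil-like cells (n = 3). Of 51 tested, 15 rose and 0 fell in Cd209a-gated cells (median 1.00), where 10.5% of all genes rose. In neutrophil-like cells 10 of the 51 fell and 0 rose, a share near the 19.2% of all genes that fell. Counted together with the 102 rows that share 3′ ends, members made 3.57% to 5.75% of UMIs in microglia-like cells and at least 9.20% in Cd209a-gated cells of every library used.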

How the data were processed

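RNA of single sorted brain cells was read from its 3′ ends by MARS-seq, with UMIs. The tables that the authors deposited hold whole UMI counts, not normalized, for each well in 52634 rows, 92 of them ERCC spike-ins. As tool and build, bcl2fastq 2.15.0.4 and mm10 appear in the submitters' processing notes (aligner: not given in the sources used here). Doublets were excluded in the authors' sort and no caller was run. No column belonged to an unlabelled sample.

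Wells with 1 cell and at least 500 non-ERCC UMIs were kept. Classes were gated on UMIs per 10000 of listed markers: neutrophil 500, microglia 150, border macrophage 30, monocyte 30, Cd209a 20, MHC class II 150 and, within microglia, activated 30, with at least 2 UMIs for the gates of 30 and 20. A cell took the earliest gate it passed in the order neutrophil, microglia, border macrophage, then monocyte or Cd209a, whichever exceeded its gate more, then MHC class II. The gates were set after the marker distributions had been seen. Counts were summed per library and class of at least 5 cells and tested with edgeR 4.0.16 (TMM, robust quasi-likelihood fit, filterByExpr, library as a block) in R 4.3.3, leaving the gating markers out of the genes tested. DESeq2 1.42.0 was an alternative. The scripts were tested on simulated data. Shares have no test because they are scores over a chosen set. All libraries share the same 384 cell barcodes under 5 pool barcodes, and 0 well identifiers were shared.

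Named genes were, per comparison, the 10 largest rises and falls among called members, members that departed from the family, the 8 with most UMIs, the stalk genes and Rpsa, duplicate copies with their parents, further ribosomal genes and up to 4 genes of each context list by UMIs. Members without a UMI, the marker Sparc, the rows cited for shared 3′ ends, the genes named for groups that do not overlap, and the genes whose start sites are printed, were chosen after their values were seen, as were Rps26, Rpl38 and Rpl34. The members and lists were chosen with earlier results of these data known. A few genes that these rules select are not reported here.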

Additional observations from a re-analysis of the deposited data

Results flagged for a closer look

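Of 18 groups of 4 or 5 libraries examined for a library far from the rest, 2 had one. Chance alone gives about 1 in 20 such groups. The ratio of small to large subunit UMIs in Cd209a-gated cells was 1.11 in library 4, apart from 0.827 to 0.865 in libraries 2, 3 and 5, and library 4 held 6 such cells with 299 ribosomal protein UMIs. The share of UMIs from ribosomal protein genes in microglia-like cells with high MHC class II was 5.02% in library 2, apart from 3.31% to 3.58% in libraries 3 to 5. Library 2 also had the highest share in all kept cells (5.25%).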

How the results depend on the processing

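Each ratio of shares, to microglia-like cells or within them, kept its direction under every alternative run, except for activated over low MHC class II microglia-like cells, whose ratio of 1.06 turned to 0.917 with at least 1000 UMIs per cell and 0.966 with stricter gates and ran from 0.928 to 1.20 when either of its libraries was left out. Of 93 alternative shares 20 moved by more than 1 SD between libraries. Without mitochondrial and ribosomal RNA-like rows the shares were 4.01% (microglia-like), 4.34% (border macrophage-like), 7.01% (MHC class II-high), 9.05% (Cd209a-gated) and 6.75% (monocyte-like). With pseudogene rows they were 5.04%, 4.78%, 8.91%, 11.9% and 8.25%, and 1.61% in neutrophil-like cells. Rows that share 3′ ends, added in an alternative chosen after seeing the data, gave 4.64%, 4.43%, 8.09%, 10.3%, 7.37% and 1.5%. The border macrophage-like share was 4.26% at 300 UMIs per cell (ratio 1.28) and 4.0% with looser gates, and the neutrophil-like share without gating markers was 1.86% (ratio 0.524). The MHC class II-high ratio was 1.76 at 300 UMIs, 1.85 with stricter and 1.48 with looser gates, 1.60 as a mean of cells, 1.76 with pseudogene rows and 1.74 with rows that share 3′ ends, and that of high over low MHC class II microglia-like cells was 1.45 with looser gates.

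Counts of genes called depended on the setting, and beyond scaling the cause was not tested. Many counts in this section are given without the share of all genes called under the same setting. Such counts tell only how stable the calls were, and nothing about the family against other genes. Alternatives were plain totals, totals without mitochondrial, ribosomal RNA-like and marker rows, DESeq2, 1000 UMIs per cell and sums of at least 10 cells. In that order they gave 20, 27, 7, 10 and 10 genes higher in MHC class II-high cells (0 in the fit reported). Of all genes, 10.7%, 13.8% and 6.57% rose under the former 3. In Cd209a-gated cells they gave 48, 48, 39, 42 and 32 (18 in the fit reported). There 23.7%, 24.5% and 19.5% of all genes rose under the former 3. In monocyte-like cells they gave 11, 12, 5, 3 and 0 (1 in the fit reported). There 11.3%, 12.9% and 8.97% of all genes rose under the former 3. For MHC class II-high cells the classes compared alone gave 24 of 42 members tested, where 25.4% of 338 genes rose. There 300 UMIs gave 2, stricter gates 4 and leaving out 1 library 0 to 3. For Cd209a-gated cells looser gates gave 10, no filter 3 and no library block 9, and leaving out 1 library 0 to 33. For monocyte-like cells the classes alone gave 4 of 40 members tested, where 9.72% of 319 genes rose. In these cells 300 UMIs gave 3, stricter gates 2, looser gates and no filter 0, and leaving out 1 library 0 to 1. The 1 gene lower there was lost (0) with DESeq2, the classes alone, looser gates, 1000 UMIs, plain totals, totals without those rows, no filter, no library block, sums of at least 10 cells and without any 1 library. Genes lower in neutrophil-like cells (21) numbered 1 with DESeq2, 10 with looser and 7 with stricter gates. They numbered 8 with sums of at least 10 cells, 7 with totals without those rows, and 10 to 32 without 1 library. The classes alone gave 1 of 33 members tested, where 10.8% of 279 genes fell. With 300 UMIs 1 gene was higher in activated microglia-like cells.

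Relative to the family, genes higher in Cd209a-gated cells (1) numbered 2 with looser or stricter gates, 0 with 300 UMIs, no filter or no library block, and 0 to 2 without 1 library. Genes lower there (0) numbered 3 with 1000 UMIs, 1 with sums of at least 10 cells and 0 to 2 without 1 library. The 1 gene lower in monocyte-like cells was lost with no filter (0; 0 to 1 without 1 library). Genes higher in neutrophil-like cells (1) numbered 2 with looser gates, 4 with stricter gates, 0 with no filter, 2 with sums of at least 10 cells and 0 to 2 without 1 library, with Rpl8 at -0.42 (without library 2) to 2.16. The 1 gene lower there was lost (0) with looser gates, no filter, no library block and sums of at least 10 cells (0 to 1 without 1 library). In MHC class II-high cells 0 to 1 genes were lower without 1 library. Of 380 alternatives for 26 fold changes, 251 kept direction and side of the threshold, 128 kept direction only and 1 reversed. All libraries belong to 1 group, so no samples pair across groups, and classes were paired within libraries by the block except where stated. Neutrophil-like cells at 1000 UMIs and the test of activated cells under stricter gates had too few cells to be run. Depth limits most single-gene statements: 31 of the 88 genes had fewer than 100 UMIs.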
